A study of Mus musculus with 6 samples.

Results

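The genes examined here are 30 genes of cholesterol synthesis and of its control by the transcription factor SREBP2, chosen by name: 19 enzymes from the mevalonate pathway to cholesterol, 6 genes that produce, hold back or cleave SREBP2, and 5 genes of sterol uptake, transport and esterification. Each symbol matched exactly 1 row of a counts table with 41388 gene identifiers, and all 30 were among the 12988 genes that passed the filter on low counts. The members were listed with earlier results of these data known, but the rule that chose them used no measured value. Liver RNA was sequenced from 3 Atp7b-/- and 3 wild type libraries. The mice were 6 weeks old, of both sexes and of the C57BL x 129S6/SvEv background, and every mouse ate a rodent diet with 16 ppm copper. Atp7b encodes a copper-transporting ATPase of hepatocytes that supplies the secretory pathway and excretes copper into bile, and mice that lack it are used as a model of Wilson disease. Neither the deleted stretch of the gene, nor any pooling of mice, nor the hour at which livers were taken is stated in the labels. In bulk liver, fewer cells of a type and less RNA per cell cannot be told apart.

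Cholesterol is built from acetyl-CoA through mevalonate, isoprenoid diphosphates, squalene and lanosterol. When sterols run low in the endoplasmic reticulum, SCAP carries the SREBP2 precursor to the Golgi, where a pair of proteases release the part that enters the nucleus and switches on nearly every enzyme of the pathway. When sterols are plentiful, the INSIG proteins hold SCAP and the precursor in the endoplasmic reticulum. The liver is the main organ that makes, takes up and disposes of cholesterol, and its sterol synthesis follows feeding and time of day.

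Libraries held 5919389 to 25973968 counts, and 0.364% to 0.465% of these fell on the 30 genes. Read layout was paired-end in Atp7b-/- replicate 3 and wild type replicate 1, and single-end in 4 libraries. Expression differed between these layouts in 52.8% of all genes, so the genotype was tested with layout as a second term. With either paired-end library left out, this term fits the other one exactly. Such fits therefore compare the genotypes in the single-end libraries only. Wherever 3 values are given for a genotype, they are those of replicates 1, 2 and 3, so the third Atp7b-/- value and the first wild type value are the paired-end ones. The targeted gene itself had 19.2, 13.7 and 13.3 CPM in Atp7b-/- livers, against 25.3, 85.2 and 59.7 CPM in wild type livers, and its log2 fold change was -1.73 (edgeR's quasi-likelihood test, adjusted p = 0.02). No library overlapped with the other genotype, but the call was lost without Atp7b-/- replicate 1 (adjusted p = 0.0969), Atp7b-/- replicate 2 (0.0664) or wild type replicate 3 (0.0687), at log2 fold changes of -1.71, -1.47 and -1.77. The metallothionein gene Mt2, which encodes a copper- and zinc-binding protein, had 985, 1084 and 134 CPM in Atp7b-/- livers, against 14.7, 64.8 and 34.7 CPM in wild type livers (log2 fold change 3.98, adjusted p = 0.00101 by edgeR). Its neighbour Mt1, of the same family, had 7207, 4323 and 421 CPM in Atp7b-/- livers, against 26.5, 831 and 192 CPM in wild type livers (log2 fold change 3.66, adjusted p = 0.0337 by edgeR). Over all 6 libraries the genotypes overlapped in Mt1 and not in Mt2. The Mt1 call was lost when only single-end libraries were fitted (adjusted p = 0.133) and without Atp7b-/- replicate 1 (0.214), Atp7b-/- replicate 3 (0.151) or wild type replicate 1 (0.145), with log2 fold changes of 3.49 to 3.50, while Mt2 was called with any 1 library left out. Labelled sex did not match Xist, an RNA of cells with an inactive X chromosome. Xist had 0.117, 0.702 and 0.482 CPM in Atp7b-/- livers, against 1.01, 371 and 17.4 CPM in wild type livers, although Atp7b-/- replicate 3 is labelled female. Among wild type libraries, replicates 2 and 3 are labelled female and replicate 1 male. In the single-end libraries the Atp7b-/- mice are labelled male and the wild type mice female, and in the paired-end pair the labels are the other way round. Labelled sex and a genotype effect that differs by layout therefore cannot be told apart. Within either layout, genotype and labelled sex cannot be told apart either, which limits every ratio and overlap given by layout below. Xist at 17.4 CPM or more was found only in single-end wild type libraries, replicates 2 and 3, and no Atp7b-/- library exceeded 0.702 CPM. The fit of all 6 libraries therefore does not balance sex as read from Xist. It sets Atp7b-/- livers with little Xist against wild type livers that include the Xist-high replicates 2 and 3. The calls rest on the layout term: with genotype alone, or with labelled sex in its place, edgeR called 0 of all genes, with 545 and 381 at an unadjusted p under 0.05, while DESeq2 and limma-voom, both fitted with layout, called 770 and 351.

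Hepatocyte markers dominated in every library. The 7 hepatocyte markers summed to 51754 to 65620 CPM in Atp7b-/- livers and 79566 to 103280 CPM in wild type livers, where CPM is the count scaled by TMM to a common library size. None of the 7 was called, and the log2 fold change of albumin was -0.72 (adjusted p = 0.256 by edgeR). The summed CPM of the other lists was 29.2 to 78.0 in Atp7b-/- against 21.8 to 51.4 in wild type livers for 6 cholangiocyte markers, 194 to 271 against 178 to 361 for 7 Kupffer and macrophage markers, 148 to 369.7 against 165 to 536 for 6 sinusoidal endothelial markers, and 288 to 368 against 236 to 484 for 6 stellate markers. The 6 markers of T cells, B cells and neutrophils summed to at most 2.82 CPM in Atp7b-/- and 3.2 CPM in wild type livers, with Ly6g at 0 in every library. No marker that passed the filter was called, and the markers of T cells, B cells and neutrophils did not pass it. Negative log2 fold changes were found for 6 of 7 hepatocyte and 6 of 6 endothelial markers (medians -0.28 and -0.33). Of the 5 cholangiocyte markers tested, 3 had positive and 2 negative values (median 0.74), with Sox9 at 1.37 (adjusted p = 0.104 by edgeR). The medians were -0.04 for Kupffer and macrophage markers and 0.08 for stellate markers. The part of these markers in the values of the sterol genes was not tested.

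SREBP2 is known to bind sterol response elements next to sites of general factors, and the members' promoters were searched for such letters. RefSeq (build GRCm38.p6) gave 29 start sites for 23 of the 30 members; Fdps, Fdft1, Sqle, Npc1, Stard4, Soat2 and Scarb1 had no entry. In the 250 bases before each start, the sterol response element TCACNCCAC was found, on either strand, in 1 of the 29 member windows, that of Hmgcs1, and in 1.05% of all 32851 windows of that length. The letters CCAAT, bound by the SREBP partner NF-Y, were in 19 of 29 member windows and in 33.8% of all windows. The GC box GGGCGG of Sp1-type factors was in 22 of 29 and in 32.7%, and the E-box CACGTG in 5 of 29 (those of Dhcr7, Hsd17b7, Insig1, Sc5d and Scap) and in 6.02%. The motifs were searched separately and may overlap. A match describes letters only; known SREBP2 sites vary from the searched form, and no match says nothing of binding. For 4 genes a stretch of 160 bases is shown, which is only part of the 250 bases searched, so that some of the matches counted above lie outside it. Each stretch is read 5′ to 3′ on the strand of the gene and is free of annotated exons, with motif matches in capitals (ATTGG and CCGCCC are CCAAT and GGGCGG on the other strand). Hmgcs1 is shown for its sterol response element, Insig1 and Insig2 as the pair of sterol sensors whose values are set beside each other below, and Sc5d as the late enzyme with the smallest p.
Hmgcs1, chr13:119690191-119690350, plus strand: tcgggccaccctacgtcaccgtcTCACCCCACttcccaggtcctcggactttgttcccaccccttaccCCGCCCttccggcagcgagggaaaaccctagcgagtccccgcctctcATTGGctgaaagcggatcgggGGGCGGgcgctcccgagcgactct
Insig1, chr5:28071203-28071362, plus strand, ending 49 bases before the RefSeq start: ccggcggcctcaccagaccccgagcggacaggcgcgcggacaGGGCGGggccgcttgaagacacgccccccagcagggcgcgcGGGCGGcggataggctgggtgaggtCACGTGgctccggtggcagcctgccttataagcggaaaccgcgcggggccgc
Insig2, chr1:121332590-121332749, minus strand, before the most upstream of its 3 RefSeq starts: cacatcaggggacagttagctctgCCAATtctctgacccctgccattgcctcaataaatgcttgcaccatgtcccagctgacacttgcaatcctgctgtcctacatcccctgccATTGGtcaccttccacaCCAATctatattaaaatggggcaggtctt
Sc5d, chr9:42264301-42264460, minus strand: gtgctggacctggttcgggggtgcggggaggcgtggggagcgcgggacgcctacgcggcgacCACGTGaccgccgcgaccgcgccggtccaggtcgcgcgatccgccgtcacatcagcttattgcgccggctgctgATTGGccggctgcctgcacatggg
The 4 printed stretches differ in what they hold. In them Hmgcs1 has the sterol response element at position -137 from its start, followed by GC boxes and a CCAAT match, Insig1 has the E-box and GC boxes, Sc5d the E-box and a CCAAT, and Insig2 has 3 CCAAT matches and none of the other motifs searched. Outside the printed stretches, the 250 bases hold further CCAAT matches of Hmgcs1 at -237 and -176, a GC box at -229 and a CCAAT at -216 of Insig1, and GC boxes of Sc5d at -241 and -205. The other RefSeq starts of Insig2 each have a GC box, at -128 and at -6. The counts are per gene, so the Insig2 starts cannot be told apart in them.

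None of the 30 genes was called at an adjusted p under 0.05 in edgeR's quasi-likelihood test, while 323 of all 12988 genes (2.49%) were, 1.90% higher and 0.585% lower. At an unadjusted p under 0.05 stood 5 of the 30: Scap, Idi1, Sc5d and Stard4 with negative and Insig2 with a positive log2 fold change. That is 13.3% of the members lower and 3.33% higher, beside 6.74% and 7.80% of all genes. DESeq2 called Scap (adjusted p = 0.0043) and Insig2 (0.0465) among the 30, beside 770 of all 12988 genes, more than edgeR's 323. Limma-voom called none of the 30, beside 351 of all genes. It had 5 of the 30 at an unadjusted p under 0.05, beside 2122 of all genes. The median log2 fold change of the 30 was -0.18, beside -0.01 over all genes tested, and 21 of the 30 (70%) were negative, beside 50.9% of all genes. No test was made over the list. Without Atp7b-/- replicate 3, the library that goes against its labelled sex, the log2 fold changes of the 5 genes were -0.71 for Scap, -0.48 for Idi1, -0.40 for Sc5d, -0.29 for Stard4 and 1.30 for Insig2, with adjusted p between 0.25 and 0.671 by edgeR. That fit rests on the single-end libraries, where Atp7b-/- mice are labelled male and wild type mice female. It therefore cannot tell genotype from labelled sex. By step, the medians were -0.18 for the 5 mevalonate enzymes, -0.17 for the 3 isoprenoid enzymes, -0.29 for the 3 enzymes from squalene to lanosterol, -0.23 for the 8 enzymes from lanosterol to cholesterol, 0.01 for the 6 genes of SREBP2 control and -0.10 for the 5 genes of uptake, transport and esterification. In 19 of the 30 (63.3%) the 95% interval of the fold change lay within 2-fold either way, beside 56.3% of all genes. The intervals are for single genes and are not adjusted for their number. The 11 others, Hmgcs1, Pmvk, Mvd, Idi1, Ggps1, Sc5d, Scap, Insig1, Insig2, Mbtps2 and Stard4, had intervals that reached past 2-fold on 1 side.

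**Figure D1:**
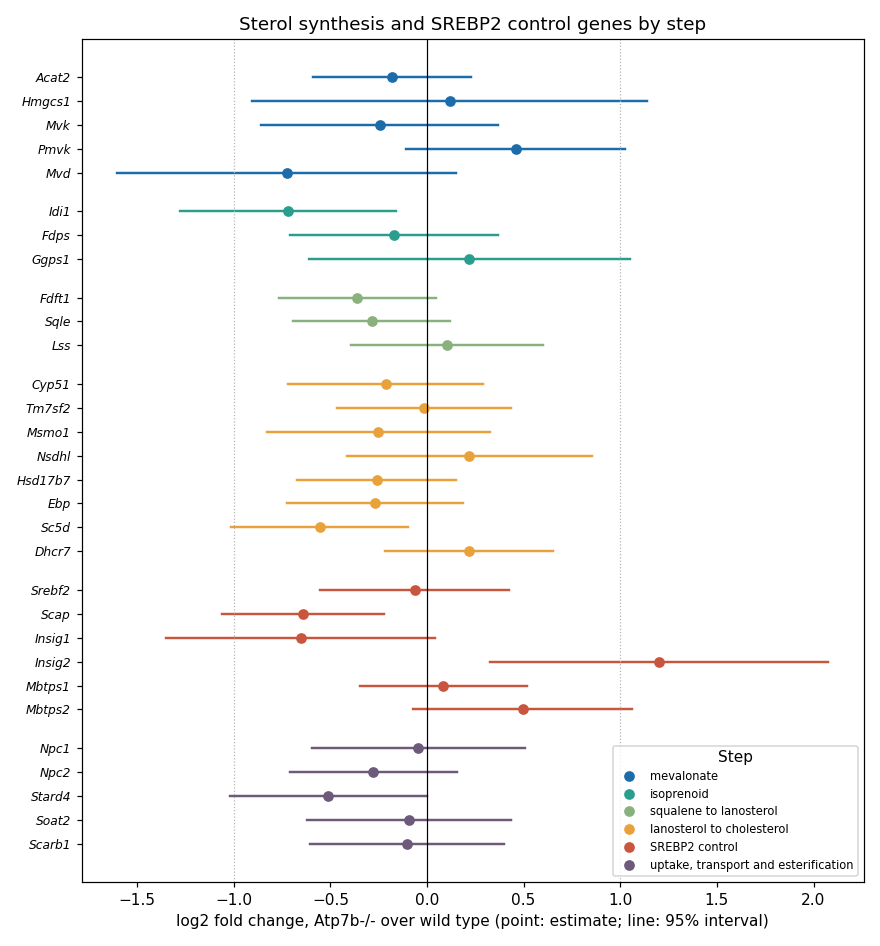
Log2 fold change of each gene, Atp7b-/- over wild type (x axis), with genes down the page by pathway step; points are edgeR estimates with layout as a term, lines are 95% intervals, and dotted lines mark a 2-fold difference. The intervals of Scap, Idi1, Sc5d and Stard4 lie below 0 and that of Insig2 above 0, and none of the 30 passed the adjusted test.

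None of the 5 mevalonate enzymes was called, and 3 had negative and 2 positive log2 fold changes. Acat2 encodes the cytosolic thiolase that joins acetyl-CoA units, and it had 35.9, 31.3 and 58.9 CPM in Atp7b-/- livers, against 73.9, 38.2 and 34.1 CPM in wild type livers. Its log2 fold change was -0.18 (95% interval -0.59 to 0.23). Hmgcs1, the HMG-CoA synthase of the cytosol whose promoter holds the sterol response element, had 151, 105 and 507 CPM in Atp7b-/- livers, against 589, 161 and 48.2 CPM in wild type livers. The paired-end libraries were far above the single-end ones in both genotypes, and within the single-end libraries the genotypes overlapped (log2 fold change 0.12, 95% interval -0.90 to 1.14). The mevalonate kinase gene Mvk had 84.4, 41.5 and 24.8 CPM in Atp7b-/- livers, against 28.7, 86.4 and 65.1 CPM in wild type livers, with the lowest value of each genotype in its paired-end library (log2 fold change -0.25, 95% interval -0.86 to 0.37). Pmvk, whose product adds the second phosphate, had 66.2, 50.2 and 50.1 CPM in Atp7b-/- livers, against 43.6, 49.1 and 27.8 CPM in wild type livers. All Atp7b-/- values exceeded all wild type values, the nearest by about 1 CPM, and the log2 fold change was 0.46 (95% interval -0.11 to 1.03, adjusted p = 0.459 by edgeR). Mvd encodes the decarboxylase that ends the mevalonate part, and it had 18, 26.5 and 22.3 CPM in Atp7b-/- livers, against 19.0, 65.9 and 35.8 CPM in wild type livers. Its single-end values did not overlap between genotypes, but the paired-end wild type library was below the paired-end Atp7b-/- one. The log2 fold change was -0.73 (95% interval -1.60 to 0.15, adjusted p = 0.443 by edgeR), -1.15 in the single-end and 0.23 in the paired-end libraries. Leaving out wild type replicate 2 gave -0.29 and leaving out Atp7b-/- replicate 1 gave -0.40. Leaving out either paired-end library, which leaves the same single-end contrast, gave -1.19 (Atp7b-/-) or -1.20 (wild type). Mvd was not called in any of these fits.

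The isoprenoid genes Idi1 and Ggps1 had the largest ratios between layouts among the 30, and none of the 3 isoprenoid enzymes was called for genotype. Idi1 (ENSMUSG00000058258, chromosome 13, 8885501 to 8892451, plus strand, GRCm38), the isomerase that makes the building block of all isoprenoids, had 2.39, 3.37 and 30.1 CPM in Atp7b-/- livers, against 61.2, 4.25 and 3.52 CPM in wild type livers. In the single-end libraries it rested on few reads, with 41 and 24 counts in Atp7b-/- replicates 1 and 2 and 50 and 19 counts in wild type replicates 2 and 3. Within each layout every Atp7b-/- value was below every wild type value. The log2 fold change was -0.72 (SE 0.25, 95% interval -1.28 to -0.16, adjusted p = 0.215 by edgeR), and the paired-end libraries were 13.0-fold above the single-end ones. The farnesyl diphosphate synthase gene Fdps had 66.8, 104 and 172 CPM in Atp7b-/- livers, against 262, 82.0 and 82.9 CPM in wild type livers, a log2 fold change of -0.17 (95% interval -0.71 to 0.37). Ggps1, which makes geranylgeranyl diphosphate for protein prenylation and not for sterols, had 1.57, 2.24 and 9.88 CPM in Atp7b-/- livers, against 11.4, 0.935 and 1.67 CPM in wild type livers. It was among the lowest of the 30 genes, at 0.967 CPM per kilobase of exon in Atp7b-/- and 0.987 in wild type livers, and its log2 fold change was 0.22 (95% interval -0.61 to 1.05). Ggps1 shares exonic bases with Arid4b on the other strand, and the labels do not say whether counting used strand.

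From squalene to lanosterol, Fdft1 and Sqle had negative and Lss a positive log2 fold change, all with intervals that include 0. Fdft1 encodes squalene synthase, the first enzyme committed to sterols, and had 85.5, 82.8 and 111.8 CPM in Atp7b-/- livers, against 125, 119.7 and 112.1 CPM in wild type livers. All Atp7b-/- values were below all wild type values, the paired-end Atp7b-/- library by less than 1 CPM. The log2 fold change was -0.36 (SE 0.18, 95% interval -0.77 to 0.044, adjusted p = 0.406 by edgeR). Only Fdft1 and Pmvk had genotypes that did not overlap over the 6 libraries, that is 1 of 30 lower and 1 of 30 higher (3.33% each), beside 3.28% and 5.23% of all genes (8.51% in either direction). Part of Fdft1's exons overlaps Ctsb on the other strand. The squalene epoxidase gene Sqle, a rate-limiting step after mevalonate, had 59.8, 58.6 and 87.9 CPM in Atp7b-/- livers, against 116, 75.7 and 62.8 CPM in wild type livers (log2 fold change -0.29, 95% interval -0.69 to 0.12). Its value in the paired-end Atp7b-/- library lay above both single-end wild type libraries. Lss, which closes the ring to lanosterol, had 98.1, 92.2 and 102 CPM in Atp7b-/- livers, against 76.0, 119 and 79.0 CPM in wild type livers (log2 fold change 0.10, 95% interval -0.39 to 0.60), and its exons overlap 4930483K19Rik on the other strand.

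Among the 8 enzymes that turn lanosterol into cholesterol, 6 had negative and 2 positive log2 fold changes, and none was called. Sc5d (ENSMUSG00000032018, chromosome 9, 42251595 to 42264256, minus strand), the lathosterol desaturase, had 249, 280.0 and 335 CPM in Atp7b-/- livers, against 599, 385 and 319 CPM in wild type livers, the second highest level per kilobase of exon among the 30 genes in wild type livers. Within each layout the Atp7b-/- values were below the wild type values, while over all 6 libraries the groups overlapped by 1 library. Its mean was 288 ± 43.8 CPM in Atp7b-/- and 435 ± 146 CPM in wild type livers (SD, n = 3 each), and the log2 fold change was -0.56 (SE 0.20, 95% interval -1.01 to -0.10, adjusted p = 0.245 by edgeR). Cyp51, the cytochrome P450 that removes a methyl group from lanosterol, had 94.8, 120.0 and 201 CPM in Atp7b-/- livers, against 331, 108 and 100.3 CPM in wild type livers. Msmo1, the oxidase that acts on the remaining methyl groups, had 71.1, 59.6 and 214 CPM in Atp7b-/- livers, against 367, 79.2 and 49.9 CPM in wild type livers. For both, the difference was in the paired-end pair, at -0.72 and -0.78 on the log2 scale, and the single-end ratios were 0.03 and 0.05. Over all libraries their log2 fold changes were -0.21 (95% interval -0.72 to 0.29) and -0.25 (95% interval -0.83 to 0.33). The X-linked dehydrogenase gene Nsdhl, a partner of Msmo1 in demethylation, had 108, 67.9 and 107 CPM in Atp7b-/- livers, against 128, 79.3 and 48.7 CPM in wild type livers (log2 fold change 0.22, 95% interval -0.41 to 0.85). Hsd17b7, the ketoreductase of the same complex, had 79.5, 66.8 and 94.1 CPM in Atp7b-/- livers, against 128, 82.9 and 81.9 CPM in wild type livers (log2 fold change -0.26, 95% interval -0.67 to 0.15). Another X-linked gene, the isomerase gene Ebp, had 109, 126 and 117 CPM in Atp7b-/- livers, against 157, 113 and 155 CPM in wild type livers (log2 fold change -0.27, 95% interval -0.72 to 0.19). The sterol reductase genes Tm7sf2 and Dhcr7 each had like ratios in the 2 layouts. Tm7sf2 had 187, 234 and 109.5 CPM in Atp7b-/- livers, against 109.6, 187 and 242.6 CPM in wild type livers, with log2 ratios of -0.02 in the single-end and -0.0011 in the paired-end libraries (95% interval over all libraries -0.47 to 0.43). Dhcr7, which makes the last step to cholesterol, had 207, 246 and 115 CPM in Atp7b-/- livers, against 99.0, 172 and 219 CPM in wild type livers, and both layouts gave a log2 ratio of 0.22 (95% interval over all libraries -0.22 to 0.65). Exons of Cyp51 overlap Akap9 on the other strand, and those of Tm7sf2 overlap Vps51 on the same strand, so reads there cannot be given to 1 gene with certainty.

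**Figure D2:**
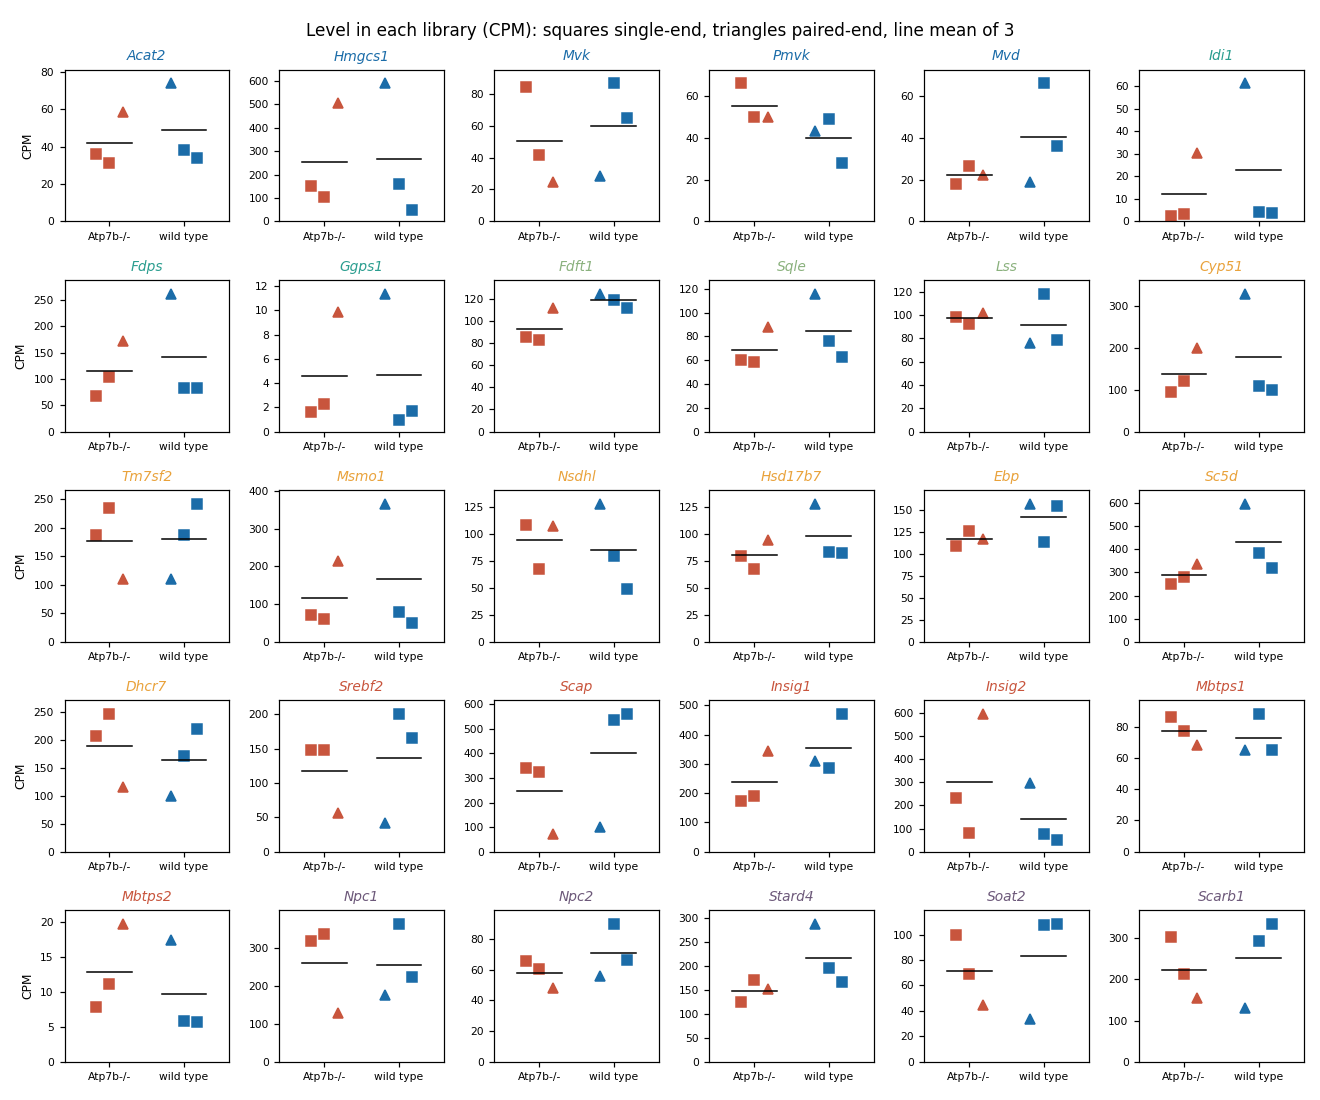
CPM of each of the 30 genes in every library (y axis from 0), with Atp7b-/- replicates 1 to 3 in red on the left and wild type replicates 1 to 3 in blue on the right of each panel; squares are single-end and triangles paired-end libraries, lines are means of 3, and the colour of a gene's name is its pathway step as in the plot of fold changes. For genes such as Idi1, Hmgcs1 and Scap the triangles stand apart from the squares in both genotypes, and only in Pmvk and Fdft1 do the genotypes not overlap.

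Among the genes that control SREBP2, Insig2 had the highest log2 fold change of the 30 and Scap the smallest p, and neither was called by edgeR. Insig2 (ENSMUSG00000003721, chromosome 1, 121304353 to 121332589, minus strand) encodes a retention protein of SCAP that, in mouse liver, is known to have a transcript repressed by insulin. It had 232, 81.7 and 596 CPM in Atp7b-/- livers, against 295, 75.9 and 52.1 CPM in wild type livers. In the single-end and in the paired-end libraries the Atp7b-/- values were above the wild type values, by 81.7 against 75.9 CPM at the nearest, and the log2 ratio was 1.13 and 1.02 in the 2 layouts. Across layouts the genotypes overlapped. The mean was 303 ± 265 CPM in Atp7b-/- and 141 ± 134 CPM in wild type livers (SD, n = 3 each), and the log2 fold change was 1.20 (SE 0.38, 95% interval 0.32 to 2.07, adjusted p = 0.187 by edgeR), or 2.3-fold. Whether Insig2 was called turned on single libraries and on the tool. Without Atp7b-/- replicate 2 the log2 fold change was 1.51 and it was called (adjusted p = 0.0387), without Atp7b-/- replicate 1 it was 0.66 (adjusted p = 0.529), and DESeq2 gave 1.18 (adjusted p = 0.0465). Without the expression filter it was 1.23 (adjusted p = 1.43e-05 by edgeR). That fit called 1116 of 25130 genes, against 323 of 12988 with the filter, and of the 30 genes it called Insig2 alone. The cause of the smaller p of Insig2 in that fit was not tested. Over all 15 alternatives the adjusted p was between 1.43e-05 and 1.

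Insig1, its paralog and a target gene of SREBP2, had 174, 191 and 346 CPM in Atp7b-/- livers, against 309, 286 and 472 CPM in wild type livers. Insig1 had the highest mean level per kilobase of exon of the 30 genes in wild type livers (76.5 CPM per kilobase in Atp7b-/- and 115 in wild type livers). The means of Insig2, over both layouts, were 87.3 in Atp7b-/- and 40.6 in wild type livers. In Atp7b-/- livers Insig1 had 56.2, 61.6 and 112 CPM per kilobase, and Insig2 had 66.8, 23.5 and 172. Insig2 was thus below Insig1 in Atp7b-/- replicate 2, and its mean was raised by the paired-end library. For Insig1, both Atp7b-/- values in the single-end libraries were below both wild type values (log2 ratio -1.01), and in the paired-end libraries its log2 ratio was 0.16. The log2 fold change of Insig1 was -0.65 (SE 0.31, 95% interval -1.35 to 0.043, adjusted p = 0.381 by edgeR). With wild type replicate 3 left out it was -0.31. With Atp7b-/- replicate 3 or wild type replicate 1 left out, which leaves the same single-end contrast, it was -1.04 or -1.05. Insig1 was not called in any of these fits. A genotype effect that differs between layouts was not called by edgeR for any of the 30 genes (smallest adjusted p = 0.987 by edgeR, with 0.0154% of all genes called); its unadjusted p was 0.0481 for Insig1 and 0.0476 for Mvd, and each paired-end library is fitted exactly in that test.

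Scap (ENSMUSG00000032485, chromosome 9, 110333288 to 110384950, plus strand), which encodes the escort of SREBP2, had the smallest p of the 30. It had 343, 323 and 73.3 CPM in Atp7b-/- livers, against 102, 536 and 562 CPM in wild type livers. Within each layout the Atp7b-/- values were below the wild type values, and the paired-end libraries of both genotypes were below all single-end ones. Its mean was 246 ± 150.2 CPM in Atp7b-/- and 400.0 ± 258 CPM in wild type livers (SD, n = 3 each), and the log2 fold change was -0.64 (SE 0.19, 95% interval -1.06 to -0.22, adjusted p = 0.135 by edgeR), a ratio of 0.641. Leaving out any 1 library gave -0.72 to -0.58 with adjusted p between 0.237 and 0.47, so that only DESeq2 called it. Scap shares exonic bases with 5830462I19Rik on the other strand. The gene of SREBP2 itself, Srebf2, had 148, 148 and 55.7 CPM in Atp7b-/- livers, against 41.3, 201 and 165 CPM in wild type livers. It was lower in both single-end Atp7b-/- libraries than in both single-end wild type ones, and the other way in the paired-end pair, with a log2 fold change of -0.064 (95% interval -0.55 to 0.43). The protease genes Mbtps1 and Mbtps2 encode the enzymes that cut SREBP2 in the Golgi. Mbtps1 had 86.6, 77.2 and 68.2 CPM in Atp7b-/- livers, against 64.9, 88.4 and 65.4 CPM in wild type livers (log2 fold change 0.083, 95% interval -0.35 to 0.51). X-linked Mbtps2 had 7.81, 11.1 and 19.8 CPM in Atp7b-/- livers, against 17.5, 5.86 and 5.75 CPM in wild type livers, the lowest level per kilobase in wild type livers, and a log2 fold change of 0.49 (95% interval -0.073 to 1.06, adjusted p = 0.419 by edgeR). Its exons overlap Yy2 on the same strand.

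Some clock genes, such as Nr1d1, Arntl and Dbp, differed widely between libraries of 1 genotype. Nr1d1 encodes REV-ERB alpha, a clock repressor that is known to act on Insig2 in mouse liver, and it had 361, 218 and 12.3 CPM in Atp7b-/- livers, against 64.7, 285 and 132 CPM in wild type livers. Arntl, which encodes BMAL1, had 10.8, 0.281 and 43.2 CPM in Atp7b-/- livers, against 3.24, 0.935 and 0.371 CPM in wild type livers. Dbp, a clock output gene, had 58.1, 231 and 0.999 CPM in Atp7b-/- livers, against 48.6, 286 and 319.9 CPM in wild type livers. The library with the highest Insig2, Atp7b-/- replicate 3, had the lowest Nr1d1 and Dbp and the highest Arntl. Atp7b-/- replicate 1, whose Insig2 was above the other single-end libraries, had the highest Nr1d1 of all libraries and the second highest Arntl. Of 17 clock genes tested, Hlf was called at -0.92 on the log2 fold change scale (adjusted p = 0.0323 by edgeR, beside 0.585% of all genes called lower). None was called higher, and the list's median was -0.84. Hlf varied little within a genotype, with 38.2, 40.0 and 31.0 CPM in Atp7b-/- livers, against 67.5, 66.3 and 71.2 CPM in wild type livers. Its genotypes did not overlap, beside 3.28% of all genes not overlapping and lower. Tef stood at -1.24 and Per3 at -2.28 (adjusted p = 0.325 and 0.396 by edgeR). Of the 17, 14 had negative and 3 positive log2 fold changes, the largest that of Arntl at 3.38 (adjusted p = 0.302 by edgeR). The summed CPM of the 18 listed clock genes was 445 to 1362 in Atp7b-/- and 897 to 1665 in wild type livers. The part of the clock genes' differences in the values of Insig2 and the other sterol genes was not tested.

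**Figure D3:**
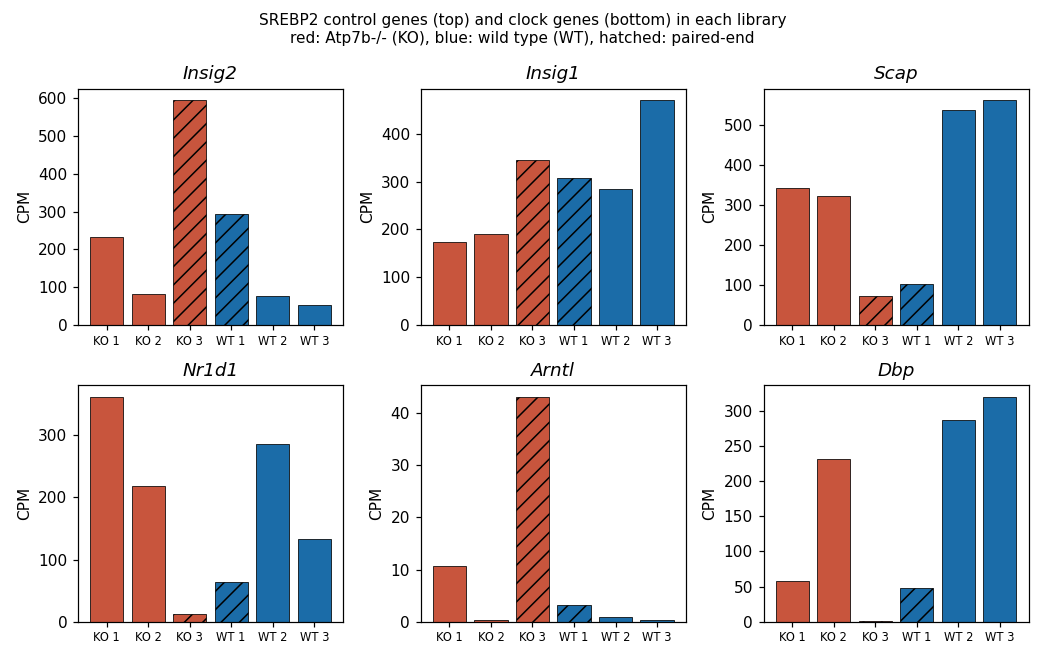
CPM (y axes from 0) of Insig2, Insig1 and Scap in the top row and of the clock genes Nr1d1, Arntl and Dbp in the bottom row, with 1 bar for each library; red bars are Atp7b-/- (KO), blue bars wild type (WT), and hatched bars paired-end libraries. Atp7b-/- replicate 3 has the highest Insig2 and Arntl and the lowest Scap, Nr1d1 and Dbp of the 6 libraries.

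All 5 genes of uptake, transport and esterification had negative log2 fold changes, none of them called. Stard4, a carrier of cholesterol between membranes, had 124, 171 and 151 CPM in Atp7b-/- livers, against 287, 195 and 167 CPM in wild type livers. In the paired-end pair the ratio was -0.93 on the log2 scale, and in the single-end libraries -0.31, where the genotypes overlapped. The log2 fold change of Stard4 was -0.51 (SE 0.23, 95% interval -1.02 to -0.0016, adjusted p = 0.342 by edgeR). The genes of the late endosome, Npc1 and Npc2, pass on cholesterol freed from lipoproteins. Npc1 had 319, 336 and 129 CPM in Atp7b-/- livers, against 176, 363 and 224 CPM in wild type livers (log2 fold change -0.044, 95% interval -0.59 to 0.51), and its exons overlap Rmc1 on the other strand. Npc2 had 65.7, 60.5 and 48.2 CPM in Atp7b-/- livers, against 55.9, 89.8 and 66.5 CPM in wild type livers (log2 fold change -0.28, 95% interval -0.71 to 0.15). Soat2, the hepatocyte enzyme that esterifies cholesterol, had 100.0, 69.2 and 44.7 CPM in Atp7b-/- livers, against 33.5, 107 and 108 CPM in wild type livers (log2 fold change -0.095, 95% interval -0.62 to 0.43). Scarb1, the receptor that takes up cholesteryl ester from HDL, had 302, 214 and 155 CPM in Atp7b-/- livers, against 129.5, 292 and 334 CPM in wild type livers (log2 fold change -0.10, 95% interval -0.60 to 0.40). In Soat2 and Scarb1 the single-end and paired-end ratios had opposite signs, at -0.38 and 0.42 for Soat2 and at -0.30 and 0.25 for Scarb1.

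Layouts differed in more of these genes than genotypes did. By edgeR, 19 of the 30 differed between layouts at an adjusted p under 0.05, 11 of them higher (36.7%) and 8 lower (26.7%) in the paired-end libraries, beside 27.2% and 25.7% of all genes. The largest ratios were 13.0 for Idi1, 6.91 for Ggps1, 4.74 for Hmgcs1, 4.36 for Msmo1 and 4.18 for Insig2, and the smallest were 0.203 for Scap and 0.295 for Srebf2. Summed over the 8 enzymes after lanosterol, the libraries held 1106, 1201 and 1293 CPM in Atp7b-/- livers against 1918, 1207 and 1216 CPM in wild type livers, and the paired-end wild type library was the highest. The 30 genes together summed to 3676, 3480 and 4156 CPM in Atp7b-/- livers and 4836, 4249 and 3992 CPM in wild type livers. In 12 of the 30 (40%) the genotype ratio was negative in both layouts and in 5 (16.7%) positive in both, beside 29.3% and 28.8% of all genes. The 5 positive ones were Pmvk, Dhcr7, Insig2, Mbtps1 and Mbtps2. In the single-end libraries alone, 11 genes (36.7%) had Atp7b-/- values below and 3 (10%) above all wild type values, beside 22.6% and 23.5% of all genes. Labelled sex goes with genotype in the single-end libraries.

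**Figure D4:**
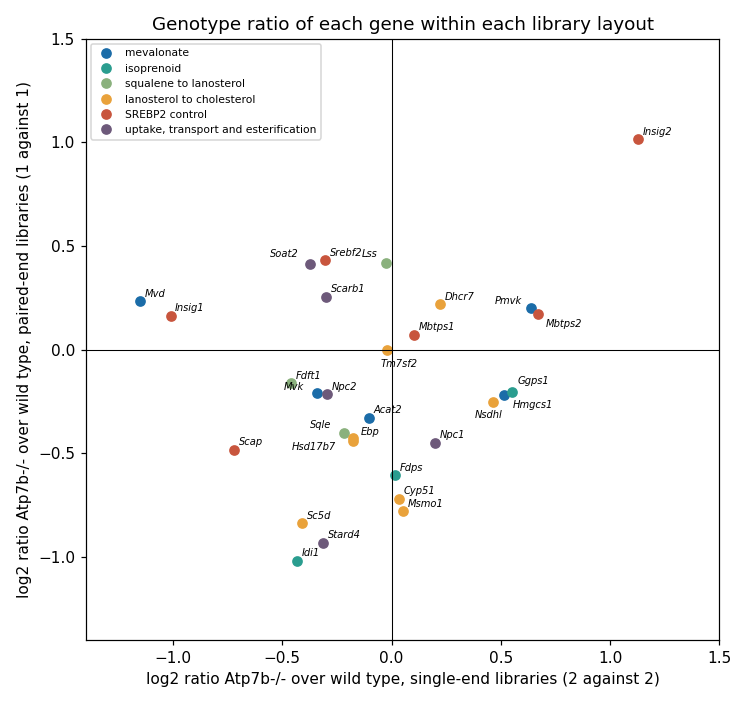
Log2 ratio of Atp7b-/- over wild type CPM in the single-end libraries (x axis, 2 against 2) and in the paired-end libraries (y axis, 1 against 1, no replicate), with 1 point for each of the 30 genes coloured by step. Insig2 lies at 1.13 and 1.02, Scap at -0.72 and -0.48, and Insig1 and Mvd have opposite signs in the 2 layouts.

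Neighbouring genes were counted in 4 further lists, and no gene of them was called. Of the 15 genes of nonsterol isoprenoid use (prenylation, dolichol and ubiquinone), 6 were negative and 9 positive with a median of 0.06, and Pdss1, a ubiquinone side chain enzyme, stood at 1.12 on the log2 fold change scale (adjusted p = 0.242 by edgeR). The 16 partners of sterol sensing and of sterol-driven degradation in the endoplasmic reticulum had 8 negative and 8 positive values and a median of 0.0036. Ufd1 and Vcp, parts of the machinery that extracts proteins from that membrane, stood at 0.65 each (adjusted p = 0.125 and 0.235 by edgeR), and Mylip, a ubiquitin ligase of lipoprotein receptors, at -0.71 (adjusted p = 0.133). The 12 further genes of sterol transport and esterification had 5 negative and 7 positive values and a median of 0.12, and Lcat, which esterifies plasma cholesterol, stood at -0.54 (adjusted p = 0.268 by edgeR). Of the 16 lipogenic targets of the related factor SREBP1, 12 were negative and 4 positive, with a median of -0.31. In that list Srebf1 averaged 214 ± 70.6 CPM in Atp7b-/- and 479 ± 257 CPM in wild type livers (mean ± SD, n = 3 each). Its log2 fold change was -1.0 (adjusted p = 0.0997 by edgeR). The log2 ratio was -1.35 in the single-end and -0.32 in the paired-end libraries, and over all libraries the genotypes overlapped. Thrsp, a lipogenic gene of the liver, stood at -2.76 (SE 0.76, adjusted p = 0.2 by edgeR).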

How the data were processed

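RNA was sequenced from 3 Atp7b-/- and 3 wild type mouse livers as 54-base reads, single-end for 4 libraries and paired-end for 2. The authors deposited whole-number counts per gene; the tools named are STAR 2.4, featureCounts and edgeR 3.8 with the GRCm38 build, per the submitters' processing notes. The annotation release, strand setting, treatment of multi-mapping reads and the way pairs were counted are not stated in those notes or in the labels. Totals were 5919389 to 25973968 counts per library. The authors' own comparison table was not used here.

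Symbols came from the GENCODE annotation of GRCm38, which named 40254 of 41388 identifiers. Counts were tested in edgeR 4.0.16 (R 4.3.3) after filtering with filterByExpr at a minimum count of 10 and TMM scaling, by the robust quasi-likelihood test with layout and genotype as terms. P-values were Benjamini-Hochberg adjusted over 12988 genes and called under 0.05. Each standard error was taken as |log2 fold change| divided by the root of F, and 95% intervals use the matching t quantile. Ratios within a layout are of CPM plus a pseudocount of 0.1, so they understate differences of low genes. DESeq2 1.42.0, limma 3.58.1 (voom), other scalings, filters and terms, and each library left out in turn were alternatives. Scripts were tested on simulated data. All 30 members are named, with Atp7b, Mt1, Mt2 and Xist as label checks, and up to 4 genes of each neighbouring list by smallest p. In the clock list Nr1d1 and Dbp are named besides, and they were not among the 4 with the smallest p. Members and lists were chosen with earlier results of these data known. Replicate numbers follow accession order and pair nothing. Libraries of 1 genotype are separately labelled samples, but p-values measure only their spread, which may be partly technical. Every library differed from each of the others by more than counting noise, with a chi-square of 37.1 to 492 for each gene on average.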

Additional observations from a re-analysis of the deposited data

How the results depend on the processing

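The number of genes called among all tested was 323, and became 0 without the layout term, 0 with labelled sex in its place, 126 in the single-end libraries only, 1116 without the expression filter, 770 in DESeq2, and 119 to 323 when each library was left out in turn (119 without Atp7b-/- replicate 3, 131 without wild type replicate 1 and 208 without Atp7b-/- replicate 1). Of the 30 members, the number called higher was 0, and 1 (Insig2) without the filter, 1 in DESeq2, and 0 to 1 with libraries left out. The number called lower was 0, and 1 (Scap) in DESeq2. The members' median log2 fold change of -0.18 ranged between -0.26 and -0.12 with libraries left out, lowest without wild type replicate 3. The cause of these moves was not tested. Signs turned for genes whose log2 fold changes in the main fit lay between -0.25 (Msmo1) and 0.22 (Ggps1). Without the layout term these were Hmgcs1 (-0.066), Ggps1 (-0.042) and Npc1 (0.039). With labelled sex they were Srebf2 (0.060) and Soat2 (0.032). In single-end libraries they were Fdps (0.054), Lss (-0.052), Cyp51 (0.045), Msmo1 (0.020) and Npc1 (0.16). Tm7sf2 turned with upper-quartile scaling (0.036) and without the filter (0.018), and Ggps1 in limma-voom (-0.00081). With libraries left out, the log2 fold change spanned -0.28 to 0.67 for Hmgcs1, -0.57 to 0.0095 for Mvk, -0.42 to 0.064 for Fdps, -0.058 to 0.61 for Ggps1, -0.053 to 0.34 for Lss, -0.37 to 0.054 for Cyp51, -0.11 to 0.098 for Tm7sf2, -0.50 to 0.026 for Msmo1, -0.050 to 0.47 for Nsdhl, -0.31 to 0.095 for Srebf2, -0.033 to 0.22 for Mbtps1, -0.28 to 0.17 for Npc1, -0.35 to 0.13 for Soat2 and -0.28 to 0.089 for Scarb1. The alternatives are not independent: those with single-end libraries only, without Atp7b-/- replicate 3 and without wild type replicate 1 rest on the same single-end contrast. The other 16 members kept their sign in all 15 alternatives. Among these, leaving out 1 library moved the log2 fold change by over 1.5 times in 12: it spanned -0.25 to -0.093 for Acat2, 0.23 to 0.68 for Pmvk, -1.20 to -0.29 for Mvd, -0.86 to -0.48 for Idi1, -0.35 to -0.16 for Hsd17b7, -0.41 to -0.16 for Ebp, 0.13 to 0.32 for Dhcr7, -1.05 to -0.31 for Insig1, 0.66 to 1.51 for Insig2, 0.32 to 0.70 for Mbtps2, -0.38 to -0.13 for Npc2 and -0.70 to -0.29 for Stard4. Where a setting leaves 1 library in a layout and genotype, its spread is taken from the others. No paired analysis was possible because the labels give no replicate numbers shared between genotypes. Idi1 and Ggps1 rest on fewest counts, down to 9 in wild type replicate 3.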
